A study of Mus musculus with 7 samples.

Results

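Cell cycle and DNA replication genes were followed across 7 RNA-seq libraries of mouse intestinal epithelium, 4 from MST3 knockouts and 3 from wild-type controls. The set comprised 36 genes of 46671 in the deposited table, chosen by name: 16 that act in S phase, when DNA is copied, and 20 that act in mitosis, when the copies are separated. All 36 were found by symbol, and all 36 passed the filter of a mean of at least 0.5 FPKM (fragments per kilobase, reads scaled to gene length and library size), which left 13057 genes for testing.

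The cKO group consisted of 4 libraries from mice in which Stk24, the gene of the kinase MST3, had been knocked out in cells of the intestinal epithelium. The Ctrl group consisted of 3 libraries labelled WT. Both groups are given as BALB/C mice 8 weeks old, kept under specific-pathogen-free conditions, and the design text speaks of littermates. The sources used here do not state which allele was deleted, which promoter drove the deletion or whether each library came from 1 mouse. The p-values therefore measure only how far these 7 libraries scatter, which may be technical. The treatment label states that no drug was given, whereas the design text names AOM and DSS, a carcinogen and an agent that causes colitis; both groups carry the same labels.

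In the intestine, cell division is confined to the crypts. Stem cells at the crypt base give rise to progenitors that divide rapidly, stop dividing as they leave the crypt and differentiate on the villus. S phase begins when the helicase made of the Mcm proteins, loaded onto DNA with the help of Cdc6 and Cdt1, is switched on by Cdc45 and the GINS complex. Mitosis is driven by Cdk1 with cyclins A and B, and ends when the anaphase-promoting complex marks the cyclins for destruction. Transcripts of both phases are made mainly in dividing cells, so that in whole tissue their level follows the number of dividing cells as well as the level in each. In such bulk samples, fewer dividing cells and less RNA per dividing cell cannot be told apart.

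Reads assigned to genes numbered 14659708 to 19659622 per library, and each member was read between 27 and 3968 times per library, 33 of them at least 100 times in every library. Stk24 averaged 3.34 ± 0.435 FPKM in cKO (SD, n = 4) and 19.9 ± 0.926 FPKM in Ctrl (SD, n = 3); its log2 difference was -2.42 (SE 0.12, limma adjusted p = 0.000427). The tissue is labelled colorectum. Among large intestine markers, Ang4, Car4 and Slc26a3 passed the filter, at means of 830, 106 and 44.2 FPKM in cKO and 724, 99.5 and 36.5 FPKM in Ctrl. Car1, Aqp8 and Hoxb13 averaged under 0.5 FPKM over the 7 libraries, and Hoxd13 was listed at 0 in all of them. Of 8 small intestine markers 7 passed, among them the lactase Lct at 392 FPKM in cKO and 410 FPKM in Ctrl and Gata4 at 46.7 FPKM in cKO and 52.2 FPKM in Ctrl, but Fabp6 and Slc10a2 averaged 1.95 and 0.936 FPKM over the 7 libraries, and Pdx1 averaged 0.129 FPKM. Of the same 8 markers, Defa24, Sis and Alpi averaged 7470, 645 and 368 FPKM over the 7 libraries. Markers of both regions were thus present in part. The levels of Defa24, Sis, Alpi, Lct and Gata4 go against reading the label as colorectum alone. The exact site was not settled from the markers.

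No member passed the test between the genotypes. Of 36 members, 0 passed an adjusted p of 0.05 in limma, where 0.0306% of all genes tested passed, and limma voom on the recovered reads also called 0. At an unadjusted p under 0.05 there was 1 member, Bub1, or 2.78% of the set, against 8.97% of all genes tested. It was also the 1 member whose libraries did not overlap between the groups, a state found in 10.1% of all genes tested. Adjusted p-values of the members lay between 0.516 and 0.994. The data do not show that the levels were equal: the limma 95% intervals of the log2 differences had a median half-width of 0.50, and 35 of 36 included 0, with bounds from -1.12 to 0.89.

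**Figure D1:**
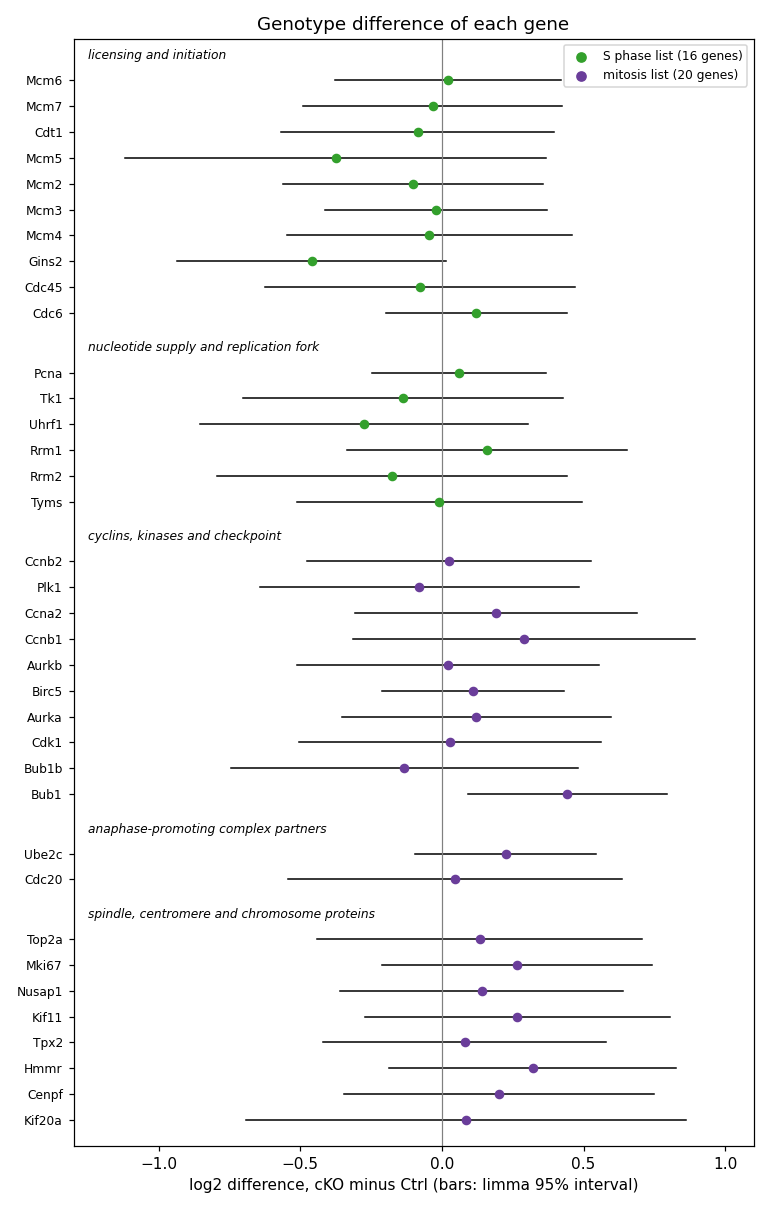
Log2 difference of each gene between the 4 cKO and the 3 Ctrl libraries, cKO minus Ctrl, on the scale log2(FPKM + 0.5). Points are limma estimates, green for S phase and purple for mitosis, and bars are 95% intervals; only the interval of Bub1 lies wholly on one side of 0, and its adjusted p is 0.516.

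In 32 of 36 members (88.9%, against 65% of all genes tested) the SD within cKO on the log2 scale was larger than the difference between the genotypes; Bub1, Gins2, Ube2c and Cdc6 were the exceptions. All 36 members stood higher in both cKO replicates 1 and 2 than in either of cKO replicates 3 and 4. The same order held for 26.3% of all genes tested, and the opposite order for 28.6%. This order was noticed in the data and is given as a description without a test; it held for 36 of 36 members under each rescaling tried. Replicate 1 of cKO was the highest of the 7 libraries in 26 members (72.2%, against 12.5% of all genes tested), and cKO replicate 3 was the lowest in 31 members (86.1%, against 19.3%). That second count was 19 after rescaling to TPM. The Ctrl libraries mostly lay between: in 29 members (80.6%, against 26.3% of all genes tested) the range of the 3 Ctrl libraries fell inside the range of the 4 cKO libraries. On the log2 scale the SD of a member had a median of 0.40 within cKO and 0.17 within Ctrl, where all genes tested had 0.23 within cKO and 0.19 within Ctrl.

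**Figure D2:**
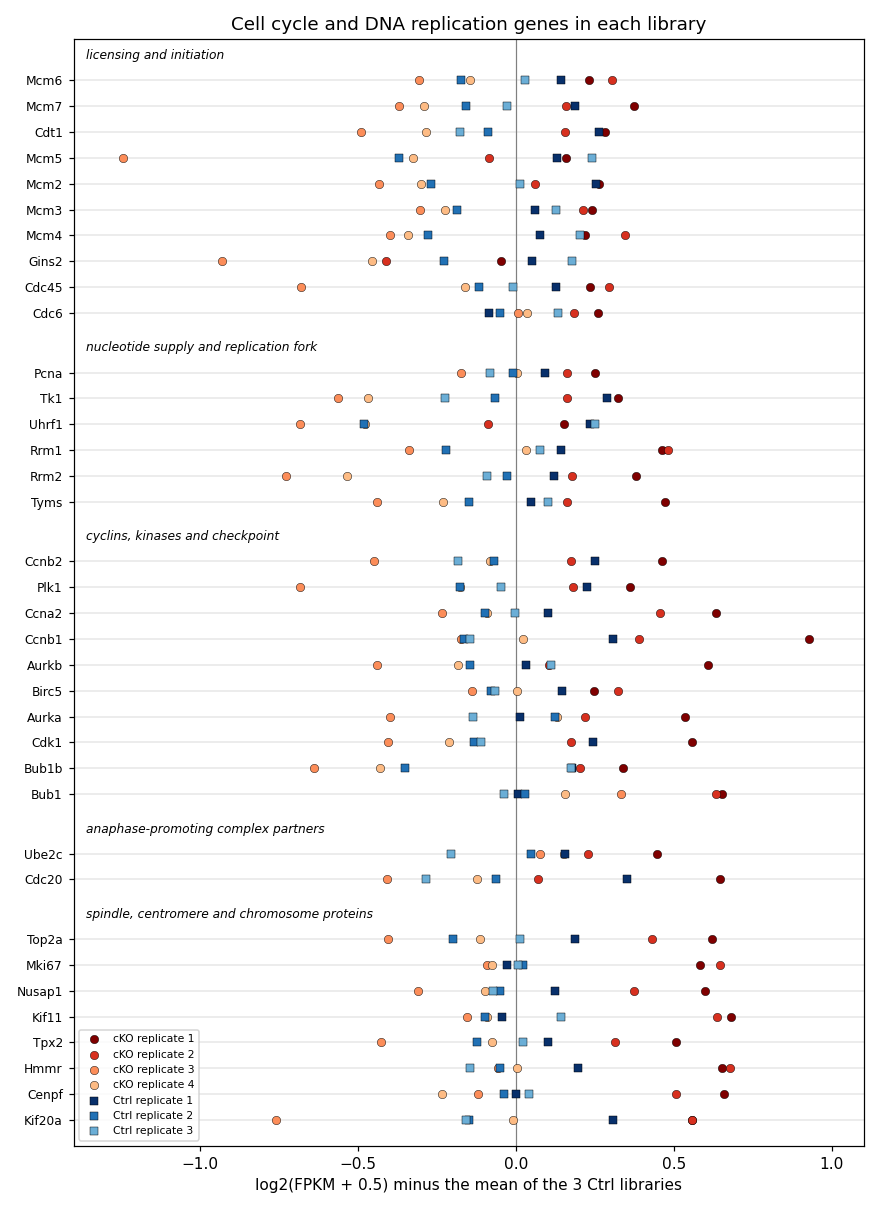
Each gene's value in each of the 7 libraries, as log2(FPKM + 0.5) minus the mean of the 3 Ctrl libraries. Red circles are cKO and blue squares Ctrl; in all 36 rows the circles of cKO replicates 1 and 2 lie to the right of those of cKO replicates 3 and 4, and in 29 rows the squares lie between the outermost circles.

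Summarised per library, the S phase list had a median of 0.26 above the Ctrl mean in cKO replicate 1 and 0.16 above it in cKO replicate 2, whereas cKO replicates 3 and 4 had -0.44 and -0.29. Ctrl replicates 1 to 3 had 0.13, -0.17 and 0.054. The mitosis list spread further upward, with medians of 0.59 and 0.35 in cKO replicates 1 and 2, -0.35 and -0.087 in cKO replicates 3 and 4, and 0.15, -0.088 and -0.057 in Ctrl. For comparison, the median over all genes tested stayed between -0.012 and 0.015 in every library. In linear terms, cKO replicate 1 exceeded cKO replicate 3 by a median of 1.9-fold over the members, from 1.25-fold for Cdc6 to 4.06-fold for Kif20a, while the median over all genes tested was 0.996-fold.

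Markers of crypt and villus cells shifted over the same libraries. The 14 crypt base stem cell markers had medians of 0.32, 0.39, -0.078 and -0.47 in cKO replicates 1 to 4 and of 0.10, -0.12 and 0.037 in Ctrl. Of them, 11 stood higher in both cKO replicates 1 and 2 than in cKO replicates 3 and 4, among them Olfm4, at 492, 452, 296 and 207 FPKM in cKO and 367, 304 and 333 FPKM in Ctrl. Each of the 7 Paneth cell markers, which mark the defensin-secreting cells of the crypt base, had the same order as the members, and their summed level lay between 4990 and 21900 FPKM in cKO and between 10200 and 25800 FPKM in Ctrl. In the 14 villus enterocyte markers the order was the reverse for 11 and the members' own for 0, with medians of -0.38, -0.47, 0.026 and 0.36 in cKO replicates 1 to 4 and of 0.043, 0.15 and -0.12 in Ctrl. Summed, the villus markers stood between 23600 and 42700 FPKM in cKO and between 34300 and 40100 FPKM in Ctrl. Between the genotypes, 9 of the 14 villus markers were lower in cKO and 5 higher. The libraries did not overlap for 2 of the 14, Fabp1 and Apoa4, both lower in cKO, against 10.1% of all genes tested. In the crypt and Paneth lists this held for 0. The log2 difference of Fabp1 was -1.19 (SE 0.29, limma adjusted p = 0.473) and that of Apoa4 -0.65 (SE 0.35, limma adjusted p = 0.623). None of these 35 marker genes passed the test between genotypes. Their part in the members' values was not tested.

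Other cells and library measures were also compared. Of 11 markers of T cells and intraepithelial lymphocytes, 10 had the reverse order, with medians of -1.10, -0.78, -0.037 and 0.14 in cKO replicates 1 to 4 and of 0.63, -0.21 and -0.45 in Ctrl, and summed levels of 300 to 743 FPKM in cKO and 482 to 1160 FPKM in Ctrl. Markers of B and plasma cells summed to between 2.91 and 10.6 FPKM in cKO and between 2.24 and 6.38 FPKM in Ctrl. Of 6 goblet cell markers, 0 had the members' order and 0 the reverse. Their medians were 0.105, 0.091, -0.519 and 0.208 in cKO replicates 1 to 4 and 0.183, -0.508 and 0.255 in Ctrl. Of 6 general epithelium markers, 1 had the members' order and 3 the reverse. Reads of the mitochondrial genome made up 3.71%, 5.24%, 7.39% and 7.51% of cKO replicates 1 to 4 and 3.88%, 5.32% and 4.19% of Ctrl replicates 1 to 3, so that the libraries with the lowest members had the highest mitochondrial share. Its part was not tested.

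**Figure D3:**
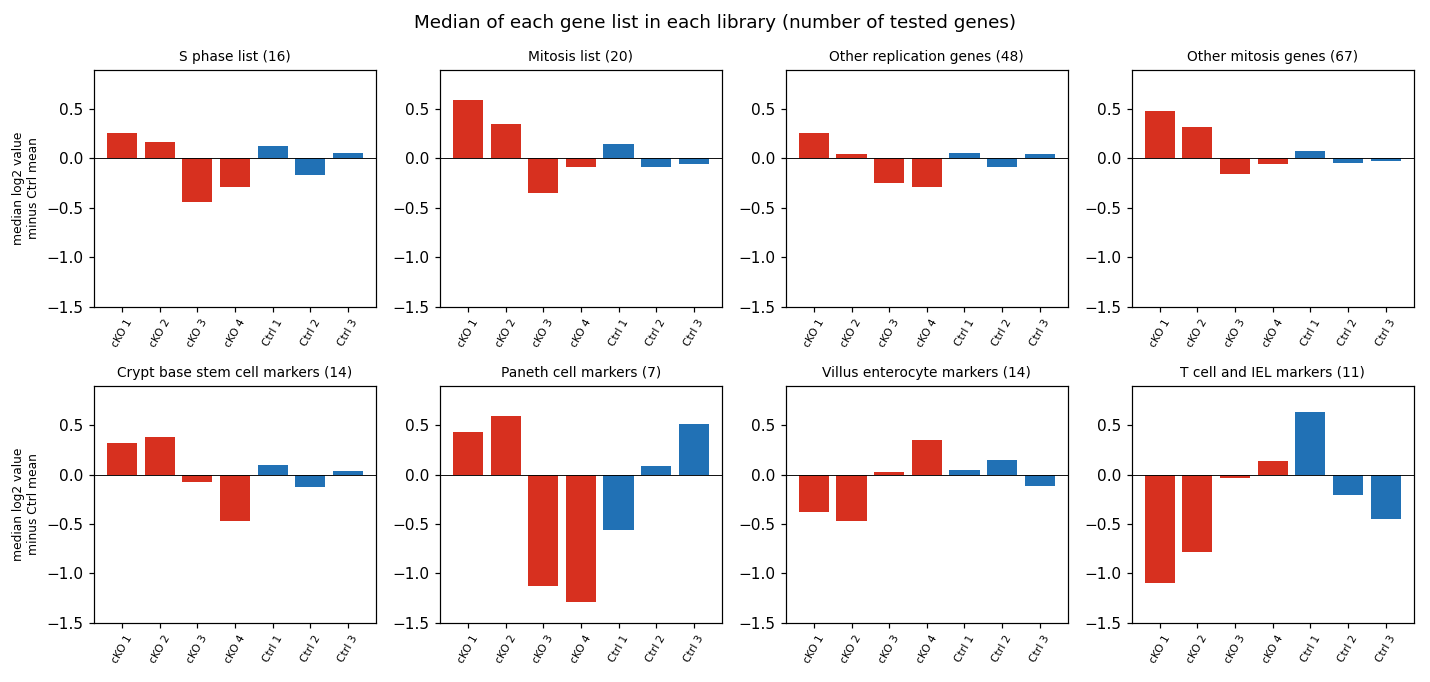
Median over the tested genes of each list in each library, as log2(FPKM + 0.5) minus the Ctrl mean, for the 4 cKO libraries (red) and the 3 Ctrl libraries (blue). The S phase, mitosis, crypt stem cell and Paneth lists are higher in cKO replicates 1 and 2 than in cKO replicates 3 and 4, and the villus and T cell lists are lower.

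Between the phases, S phase and mitosis genes leaned to opposite sides without any call. In the mitosis list 18 of 20 members were higher in cKO, the median of their log2 differences being 0.13, although without cKO replicate 1 only 9 were. In the S phase list 12 of 16 were lower, with a median of -0.061, but 6 after rescaling to TPM or without Ctrl replicate 1, 8 without cKO replicate 4 or with the replicate block, and 3 with array weights or without cKO replicate 3. Over all genes tested 6363 were higher and 6694 lower, with a median of -0.008. After rescaling to TPM that median was 0.070, and the median of the S phase list was 0.022. Set against each other within a library, the median of the mitosis list exceeded that of the S phase list by 0.33, 0.19, 0.083 and 0.20 in cKO replicates 1 to 4 and by 0.022, 0.078 and -0.11 in Ctrl replicates 1 to 3. All 4 cKO libraries therefore lay above all 3 Ctrl libraries, by a narrow margin between cKO replicate 3 and Ctrl replicate 2, and 1 cKO library no longer did with a pseudocount of 1 or without Ctrl replicate 3. No test was made of this difference.

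Promoters were read for 30 of the 36 genes, which had 32 windows in the RefSeq promoter table (GRCm38.p6, 250 bases before to 50 after the start of transcription). As background, E2F factors bind sites upstream of many S phase genes, and the DREAM and B-MYB-MuvB complexes bind a cell cycle homology region (CHR) upstream of mitotic genes, often together with boxes of the factor NF-Y. The letters searched on both strands were TTTGAA for the CHR, TTTCCCGC, TTTGGCGC, TTTGCCGC and TTTCGCGC for E2F, and CCAAT for NF-Y, and matches that overlapped were each kept. A CHR string was present in 12 of 16 windows of mitosis genes (75%) and 2 of 16 windows of S phase genes (12.5%), against 17.9% of all 32851 promoters of the table and 16% of those of protein-coding genes. An E2F string was present in 1 of 16 windows of mitosis genes (6.25%) and 7 of 16 windows of S phase genes (43.8%), against 2.26% of all promoters and 2.85% of those of protein-coding genes. The NF-Y string was found in 87.5% of mitosis windows and 75% of S phase windows, against 37.4% of all promoters.

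The DNA replication genes are described first, and of those with an E2F or CHR string in the 250 bases before the start, the 3 with the smallest p are shown so that the strings can be seen in place. Capitals mark E2F, CHR and NF-Y strings. On GRCm38.p6, Mcm5 (chr8:75109259-75109508, plus strand) holds 2 overlapping E2F strings on opposite strands, Uhrf1 (chr17:56304063-56304312, plus strand; one of its windows in the table) 1 E2F string with 2 NF-Y strings, and Cdc6 (chr11:98907901-98908150, plus strand) 1 E2F string.
Mcm5: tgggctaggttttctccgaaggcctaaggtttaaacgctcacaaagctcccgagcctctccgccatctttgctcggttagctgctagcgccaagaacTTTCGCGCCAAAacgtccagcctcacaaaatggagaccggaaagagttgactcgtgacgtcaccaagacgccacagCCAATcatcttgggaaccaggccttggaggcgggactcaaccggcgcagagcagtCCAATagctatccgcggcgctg
Uhrf1: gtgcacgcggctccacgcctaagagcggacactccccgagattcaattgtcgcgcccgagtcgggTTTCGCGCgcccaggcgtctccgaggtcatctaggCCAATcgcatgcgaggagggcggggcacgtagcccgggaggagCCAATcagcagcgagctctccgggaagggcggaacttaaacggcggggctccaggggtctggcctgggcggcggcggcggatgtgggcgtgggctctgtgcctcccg
Cdc6: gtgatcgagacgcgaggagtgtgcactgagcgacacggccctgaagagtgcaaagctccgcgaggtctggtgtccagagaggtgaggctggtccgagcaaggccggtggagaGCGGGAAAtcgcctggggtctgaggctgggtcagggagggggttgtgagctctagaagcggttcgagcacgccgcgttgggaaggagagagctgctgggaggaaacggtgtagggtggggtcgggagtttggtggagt

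Genes that license and start replication were lower in cKO for 8 of 10 members, and 0 passed. Their log2 differences had a median of -0.061, which turned to 0.022 after rescaling to TPM, where 3 of 10 were lower, and to 0.075 without cKO replicate 3. Rescaling to TPM also raised the median over all genes tested, from -0.008 to 0.070. Gins2 encodes a subunit of the GINS complex, part of the active helicase (GRCm39 chromosome 8, 121308005 to 121315814, minus strand). It stood at 10.1, 7.71, 5.24 and 7.48 FPKM in cKO replicates 1 to 4, against 10.8, 8.83 and 11.8 FPKM in Ctrl replicates 1 to 3. Only cKO replicate 1 reached into the Ctrl range. The log2 difference was -0.46 (SE 0.21, limma adjusted p = 0.561), and -0.30 without cKO replicate 3. The exact 2-sided permutation p of Gins2 was 0.114. That test doubles the smaller 1-sided share, and 0.0571 is the smallest p it can give with 4 against 3 libraries. Mcm5, a subunit of the helicase, stood at 19.5, 16.4, 7.08 and 13.8 FPKM in cKO, against 19.1, 13.4 and 20.7 FPKM in Ctrl. Here cKO replicate 3 stood apart below all other libraries, and the groups overlapped. The log2 difference of Mcm5 was -0.37 (SE 0.32, limma adjusted p = 0.752), but -0.085 without cKO replicate 3. Cdc6, which loads the helicase, stood at 2.21, 2.07, 1.77 and 1.82 FPKM in cKO and 1.63, 1.68 and 1.98 FPKM in Ctrl, the narrowest spread of the set within cKO, with a log2 difference of 0.12 (SE 0.14, limma adjusted p = 0.822). That value was 0.075 without cKO replicate 1, 0.079 without Ctrl replicate 1 and 0.19 without Ctrl replicate 3.

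The other helicase subunits differed little between the groups. Mcm2 averaged 13.6 ± 3.13 FPKM in cKO (SD, n = 4) and 14.5 ± 2.7 FPKM in Ctrl (SD, n = 3). Mcm3 averaged 13.2 ± 2.68 FPKM in cKO and 13.3 ± 1.54 FPKM in Ctrl, and Mcm4 10.1 ± 2.76 FPKM in cKO and 10.2 ± 1.78 FPKM in Ctrl. Mcm6 was the most abundant of the 6 in both groups, at 20.8 ± 4.26 FPKM in cKO and 20.3 ± 2.28 FPKM in Ctrl. Mcm7 averaged 18.4 ± 4.71 FPKM in cKO and 18.5 ± 2.32 FPKM in Ctrl. Of the helicase subunits, Mcm5 alone had a log2 difference beyond 0.102 in size. Cdt1, the second loading factor, averaged 17.6 ± 4.43 FPKM in cKO and 18.4 ± 3.16 FPKM in Ctrl. Cdc45, which joins the helicase when an origin fires, averaged 3.07 ± 1.01 FPKM in cKO and 3.15 ± 0.31 FPKM in Ctrl. Reads of Cdc45 are uncertain, since it shares 1886 bases with Ufd1 on the opposite strand and how the counting treated strand is not stated in the sources used here.

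Genes of nucleotide supply and the replication fork were lower in cKO for 4 of 6 members, and 0 passed. Their log2 differences had a median of -0.073, which turned to 0.01 after rescaling to TPM and to 0.071 without cKO replicate 3. All genes tested had a median of 0.070 after rescaling to TPM and of -0.008 before it. Uhrf1, which carries DNA methylation over to the new strand, stood at 19.0, 16, 10.4 and 12.1 FPKM in cKO replicates 1 to 4, against 20.1, 12.1 and 20.4 FPKM in Ctrl replicates 1 to 3. Its low Ctrl library, replicate 2, matched cKO replicate 4, so the groups overlapped, and the log2 difference was -0.27 (SE 0.25, limma adjusted p = 0.762). Single libraries moved it, to -0.42 without cKO replicate 1, -0.14 without cKO replicate 3, and -0.16, -0.52 and -0.15 without Ctrl replicates 1, 2 and 3. Rrm1 and Rrm2 are the large and small subunits of ribonucleotide reductase, which makes the building blocks of DNA. Rrm1 stood at 19.3, 19.6, 10.9 and 14.2 FPKM in cKO, against 15.4, 11.9 and 14.7 FPKM in Ctrl, with a log2 difference of 0.16 (SE 0.21, limma adjusted p = 0.856). It was 0.059 without cKO replicate 1, 0.052 without cKO replicate 2, 0.32 without cKO replicate 3 and 0.05 without Ctrl replicate 2. Rrm2 stood at 17.3, 15.0, 7.77 and 8.96 FPKM in cKO, against 14.4, 12.9 and 12.4 FPKM in Ctrl. For Rrm2 all 3 Ctrl libraries sat between the upper and lower pair of cKO libraries, and the log2 difference was -0.18 (SE 0.27, limma adjusted p = 0.874). Without cKO replicates 1, 2, 3 and 4 in turn it was -0.36, -0.29, 0.008 and -0.057, and without Ctrl replicate 1 it was -0.12.

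Pcna, the sliding clamp that holds the polymerases on DNA, was the most abundant member, at 95.8, 90.1, 71.3 and 80.7 FPKM in cKO replicates 1 to 4, against 85.8, 79.9 and 76.0 FPKM in Ctrl replicates 1 to 3. Its highest cKO library exceeded the lowest 1.34-fold, one of the smaller spans of the set. Tyms, which makes thymidylate, averaged 3.76 ± 1.21 FPKM in cKO (SD, n = 4) and 3.67 ± 0.373 FPKM in Ctrl (SD, n = 3). Tk1, the thymidine kinase of the salvage route, averaged 17.7 ± 5.52 FPKM in cKO and 19.0 ± 3.63 FPKM in Ctrl. A pseudogene, Pcna-ps2, is listed at a mean of 2.46 FPKM and can share reads with Pcna.

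For the mitosis genes, the 3 promoters chosen in the same way, by an E2F or CHR string before the start, each hold the CHR string together with NF-Y strings. Bub1, the member with the smallest p, is not among them, since its window holds an NF-Y string but neither a CHR nor an E2F string. On GRCm38.p6, Ube2c (chr2:164769679-164769928, plus strand) has its CHR 29 bases before the start of transcription, Mki67 (chr7:135716380-135716629, minus strand) has 2, at 116 and 98 bases, and Kif11 (chr19:37376132-37376381, plus strand) has 1 at 19 bases, counted to the first base of the string on the gene's strand.
Ube2c: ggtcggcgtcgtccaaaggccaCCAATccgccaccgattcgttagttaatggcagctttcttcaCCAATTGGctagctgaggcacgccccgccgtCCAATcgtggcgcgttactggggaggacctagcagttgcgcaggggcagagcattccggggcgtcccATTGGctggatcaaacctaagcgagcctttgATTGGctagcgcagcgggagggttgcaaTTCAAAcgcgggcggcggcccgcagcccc
Mki67: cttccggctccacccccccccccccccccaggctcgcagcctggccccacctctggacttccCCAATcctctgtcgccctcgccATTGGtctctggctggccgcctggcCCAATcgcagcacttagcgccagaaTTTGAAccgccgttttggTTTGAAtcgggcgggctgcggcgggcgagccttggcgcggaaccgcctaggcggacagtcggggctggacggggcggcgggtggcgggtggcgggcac
Kif11: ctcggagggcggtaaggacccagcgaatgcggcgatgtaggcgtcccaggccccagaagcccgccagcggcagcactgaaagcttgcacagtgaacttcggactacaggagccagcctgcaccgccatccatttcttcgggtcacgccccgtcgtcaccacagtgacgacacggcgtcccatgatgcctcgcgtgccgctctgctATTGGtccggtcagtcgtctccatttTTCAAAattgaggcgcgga

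Cyclins, mitotic kinases and checkpoint genes were higher in cKO for 8 of 10 members, and 0 passed. Their log2 differences had a median of 0.069 and, without cKO replicate 1, of -0.068, with 4 of 10 higher. Bub1 encodes a kinase of the spindle checkpoint, which holds cells until every chromosome is attached (GRCm39 chromosome 2, 127642117 to 127673790, minus strand). It stood at 4.36, 4.29, 3.39 and 2.94 FPKM in cKO replicates 1 to 4, against 2.61, 2.66 and 2.51 FPKM in Ctrl replicates 1 to 3. All 4 cKO libraries lay above all 3 Ctrl libraries, which were nearly alike. The log2 difference was 0.44 (SE 0.15, 95% interval 0.093 to 0.79, unadjusted p = 0.0194), with a limma adjusted p of 0.516 and an exact 2-sided permutation p of 0.0571, the smallest possible. Over the alternatives its log2 difference stayed between 0.37 and 0.54 and its adjusted p between 0.276 and 0.806. Bub1b, which encodes the related checkpoint protein BubR1, did not share this order, with 7.71 ± 2.63 FPKM in cKO (SD, n = 4) and 8.27 ± 1.73 FPKM in Ctrl (SD, n = 3).

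Ccnb1, the main mitotic cyclin, stood at 23.0, 15.7, 10.4 and 12 FPKM in cKO replicates 1 to 4, against 14.8, 10.5 and 10.7 FPKM in Ctrl replicates 1 to 3. Its value in cKO replicate 1, 0.93 above the Ctrl mean on the log2 scale, was the highest relative value of any member. The groups overlapped, with a log2 difference of 0.29 (SE 0.26, limma adjusted p = 0.759), which was 0.08 without cKO replicate 1, 0.45 without cKO replicate 3 and 0.45 without Ctrl replicate 1. Ccna2, the cyclin of S phase and early mitosis, stood at 23.4, 20.6, 12.6 and 14 FPKM in cKO, against 16, 13.9 and 14.9 FPKM in Ctrl, with a log2 difference of 0.19 (SE 0.22, limma adjusted p = 0.82). It was 0.044, 0.10 and 0.33 without cKO replicates 1, 2 and 3 in turn. It shares 863 bases with Exosc9 on the opposite strand. The second B cyclin, Ccnb2, averaged 23.6 ± 6.34 FPKM in cKO (SD, n = 4) and 22.8 ± 3.73 FPKM in Ctrl (SD, n = 3). Cdk1, the kinase that the cyclins switch on, averaged 8.29 ± 2.65 FPKM in cKO and 7.89 ± 1.27 FPKM in Ctrl.

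Kinases of the spindle and their partner differed by less than the spread within cKO. Plk1, which acts at centrosomes and kinetochores, averaged 21.6 ± 6.54 FPKM in cKO (SD, n = 4) and 22.2 ± 3.28 FPKM in Ctrl (SD, n = 3). Aurka, the centrosomal Aurora kinase, averaged 10.7 ± 2.85 FPKM in cKO and 9.59 ± 0.904 FPKM in Ctrl. Aurkb, the catalytic subunit of the chromosomal passenger complex, averaged 12.6 ± 4.26 FPKM in cKO and 12 ± 1.12 FPKM in Ctrl. Birc5, or survivin, which belongs to the same complex, averaged 12.6 ± 1.92 FPKM in cKO and 11.6 ± 1.08 FPKM in Ctrl. Within cKO, Birc5 spanned 1.39-fold from lowest to highest library, Aurkb 2.13-fold.

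Both partners of the anaphase-promoting complex were higher in cKO on average, and neither passed. Ube2c, the enzyme that hands it ubiquitin, stood at 92.8, 79.6, 71.7 and 75.6 FPKM in cKO replicates 1 to 4, against 75.8, 70.3 and 58.9 FPKM in Ctrl replicates 1 to 3. The lower cKO libraries overlapped the upper Ctrl libraries, with a log2 difference of 0.23 (SE 0.14, limma adjusted p = 0.664) that was 0.12 without Ctrl replicate 3. Cdc20, which brings it its targets, stood at 35.2, 23.4, 16.7 and 20.5 FPKM in cKO, against 28.6, 21.3 and 18.2 FPKM in Ctrl. Its log2 difference of 0.046 (SE 0.26, limma adjusted p = 0.97) turned to -0.15 without cKO replicate 1 and to -0.097 without Ctrl replicate 3, and was 0.20, 0.10, 0.22 and 0.014 without cKO replicate 3, cKO replicate 4, Ctrl replicate 1 and Ctrl replicate 2.

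Spindle, centromere and chromosome proteins were all higher in cKO on average (8 of 8), and 0 passed. Their log2 differences had a median of 0.17. Without cKO replicate 1 the median was 0.02 and 4 of 8 were higher. The spread of this group among the cKO libraries was also wide, with a median SD of 0.43 within cKO and 0.12 within Ctrl on the log2 scale. Mki67 encodes Ki-67, the protein most used to mark dividing cells. It stood at 20.6, 21.6, 12.7 and 12.9 FPKM in cKO replicates 1 to 4, against 13.3, 13.8 and 13.7 FPKM in Ctrl replicates 1 to 3. The upper pair of cKO libraries lay far above Ctrl and the lower pair just below it, with a log2 difference of 0.27 (SE 0.21, limma adjusted p = 0.721), or 0.16 without cKO replicate 1 and 0.14 without cKO replicate 2. Kif11, the motor that pushes the spindle poles apart, was also highest in cKO replicates 1 and 2, at 13.3, 12.9, 7.24 and 7.59 FPKM in cKO, against 7.86, 7.55 and 9.02 FPKM in Ctrl. The log2 difference of Kif11 was 0.27 (SE 0.23, limma adjusted p = 0.753), or 0.13, 0.14 and 0.41 without cKO replicates 1, 2 and 3 in turn. Hmmr, a spindle assembly protein, stood at 5.63, 5.74, 3.25 and 3.41 FPKM in cKO and 3.97, 3.26 and 3.03 FPKM in Ctrl, with a log2 difference of 0.32 (SE 0.22, limma adjusted p = 0.69), or 0.21 without cKO replicate 1 and 0.20 without cKO replicate 2.

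Top2a, the topoisomerase that untangles the copied chromosomes, stood at 42.6, 37.3, 20.7 and 25.4 FPKM in cKO replicates 1 to 4, against 31.4, 23.9 and 27.8 FPKM in Ctrl replicates 1 to 3. As for Rrm2, the Ctrl range lay inside that of cKO. Tpx2, which activates Aurora A at the spindle, averaged 6.91 ± 2.05 FPKM in cKO (SD, n = 4) and 6.32 ± 0.528 FPKM in Ctrl (SD, n = 3). Nusap1, which bundles spindle microtubules, stood between 6.95 and 13.5 FPKM in cKO and between 8.29 and 9.56 FPKM in Ctrl. Cenpf, a protein of the outer kinetochore, averaged 2.29 ± 0.846 FPKM in cKO and 1.84 ± 0.0634 FPKM in Ctrl, and was the 1 member lowest in cKO replicate 4. Kif20a, a motor of cell division, was the least abundant member, at 1.93, 1.93, 0.476 and 1.14 FPKM in cKO and 1.54, 0.991 and 0.981 FPKM in Ctrl. It shares 4930 bases with Cdc23 on the opposite strand and was read only 27 times in cKO replicate 3, so its 4.06-fold span within cKO is the least certain of the set.

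**Figure D4:**
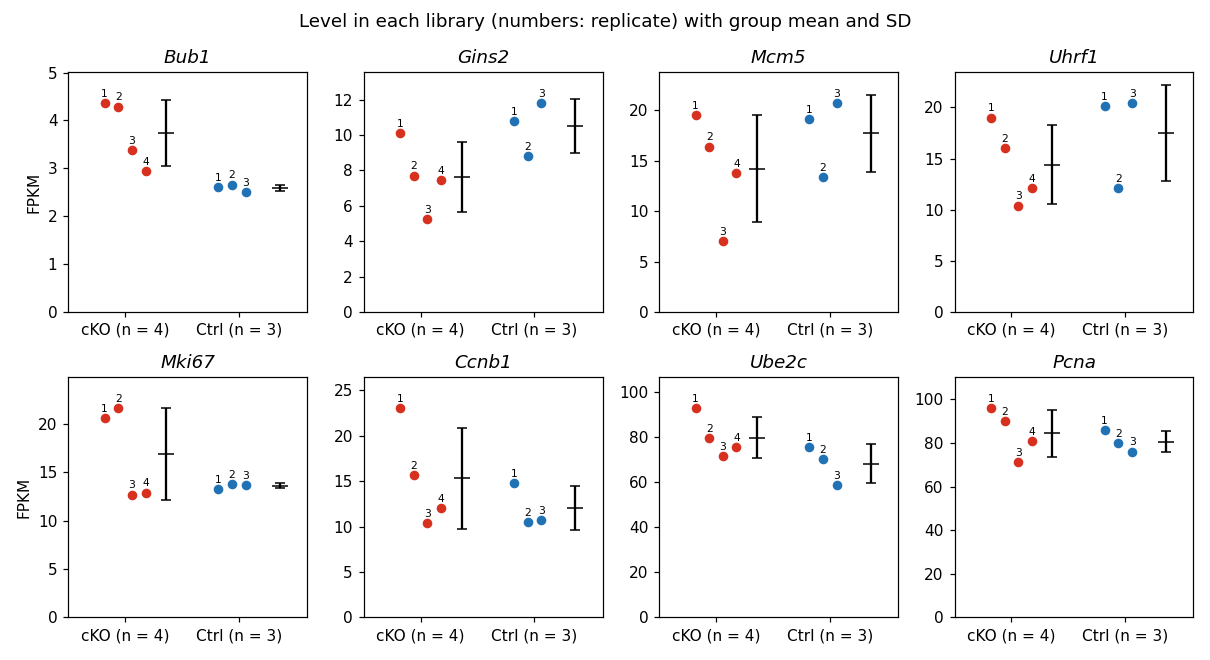
FPKM of 8 genes in each library, with cKO in red (n = 4) and Ctrl in blue (n = 3); digits give the replicate, and the black mark and bar beside the points give mean and SD. The cKO libraries of Bub1 lie between 2.94 and 4.36 FPKM, above the Ctrl libraries at 2.51 to 2.66 FPKM, whereas in the other 7 panels the groups overlap.

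The order of the cKO libraries was also counted in genes of the same pathways that were not members. Among 67 other mitosis genes, 60 stood higher in both cKO replicates 1 and 2 than in cKO replicates 3 and 4 and 0 had the reverse order; among 48 other replication genes the counts were 32 and 1. None of either list passed in limma, with 1 and 2 genes at an unadjusted p under 0.05. Of the other mitosis genes, 48 of 67 were higher in cKO, and the median over the list was 0.091 on the log2 scale; without cKO replicate 1 it was 0.008, with 34 higher. Ect2, which sets the plane of cell division, averaged 6.76 ± 1.3 FPKM in cKO (SD, n = 4) and 5.09 ± 0.103 FPKM in Ctrl (SD, n = 3), without overlap of the libraries (log2 difference 0.36, SE 0.15, limma adjusted p = 0.548). Ckap5, which elongates microtubules, averaged 3.26 ± 0.517 FPKM in cKO and 2.54 ± 0.0335 FPKM in Ctrl (limma adjusted p = 0.585). Other replication genes were higher in 22 and lower in 26, but higher in 29 after rescaling to TPM. That rescaling also raised the median over all genes tested, from -0.008 to 0.070. On the deposited scale the median over the other replication genes was -0.025. Without each of the 7 libraries in turn that median lay between -0.137 and 0.044. The lowest value came without cKO replicate 1, with 12 higher and 36 lower, and the highest without cKO replicate 4, with 26 higher and 22 lower; without Ctrl replicate 2 it was -0.089, with 16 higher and 32 lower. Dbf4, the activator of the kinase that fires origins, averaged 6.83 ± 0.742 FPKM in cKO and 5.24 ± 0.61 FPKM in Ctrl (limma adjusted p = 0.524), and Rnaseh2c, a subunit of ribonuclease H2, averaged 34.5 ± 10.5 FPKM in cKO and 49.6 ± 4.57 FPKM in Ctrl (limma adjusted p = 0.542).

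Of the regulators that decide entry into S phase and exit from mitosis, 0 passed. Of 28 G1/S regulators, 15 had the members' order and 4 the reverse, and 19 were higher in cKO. The median over that list was 0.096 on the log2 scale, and 0.009 without cKO replicate 1. Rb1, which holds E2F in check, averaged 16.5 ± 3.39 FPKM in cKO (SD, n = 4) and 12.2 ± 1.72 FPKM in Ctrl (SD, n = 3; limma adjusted p = 0.547). Its relative Rbl1, a subunit of the DREAM complex, averaged 7.74 ± 0.473 FPKM in cKO and 6.55 ± 0.116 FPKM in Ctrl, without overlap (limma adjusted p = 0.554). Such a lack of overlap was found in 2 of the 28 G1/S regulators, against 10.1% of all genes tested. Of 8 CDK inhibitors 7 were tested, with 3 higher and 4 lower in cKO, or 4 and 3 after rescaling to TPM. As for the other lists, TPM also raised the median over all genes tested, from -0.008 to 0.070. Of the 7 CDK inhibitors, 4 had the members' order and 2 the reverse. Cdkn2d, which blocks Cdk4 and Cdk6, averaged 4.68 ± 1.28 FPKM in cKO and 6.85 ± 0.804 FPKM in Ctrl (limma adjusted p = 0.524), and Cdkn3, a phosphatase of CDKs that peaks with mitosis, 7.29 ± 1.97 FPKM in cKO and 5.76 ± 1.44 FPKM in Ctrl (limma adjusted p = 0.705). Of 16 genes of the anaphase-promoting complex and its regulators, 6 were higher and 10 lower in cKO, or 10 and 6 after rescaling to TPM; 6 of the 16 had the members' order and 1 the reverse. Its subunit Cdc27 stood at 5.73, 6.33, 5.94 and 5.74 FPKM in cKO, against 3.75, 4.4 and 4.11 FPKM in Ctrl (log2 difference 0.49, SE 0.10, limma adjusted p = 0.428). Unlike the members, Cdc27 was nearly level among the cKO libraries. Anapc4, another subunit, averaged 8.83 ± 0.345 FPKM in cKO and 7.55 ± 0.549 FPKM in Ctrl (limma adjusted p = 0.573).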

How the data were processed

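Gene FPKM values of 7 libraries (4 cKO, 3 Ctrl) were used as deposited by the authors. Reads were aligned with HISAT2, per the submitters' processing notes; for its version, the counting program, strand setting and annotation, the sources used here give nothing. The chromosome accession versions in the deposited table are those of GRCm39. Multiplied by gene length, 100% of the values were whole multiples (within 0.01) of the library's value for 1 read, which gave the reads behind each value; the library sizes in the deposited FPKM lay between 0.891 and 1.102 times the read totals. In 1 kb, 3 reads stood at 0.155 to 0.216 FPKM.

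Genes averaging 0.5 FPKM or more were tested on log2(FPKM + 0.5), computed from the deposited values, with limma 3.58.1 in R 4.3.3 (lmFit, eBayes with a trend, 2-sided, Benjamini-Hochberg over all genes tested, threshold 0.05), without covariates. Fold changes on this scale understate those of low genes. Single genes were compared by an exact 2-sided permutation test over 35 splits. The smaller of the upper and lower shares of splits was doubled, so the smallest possible p was 0.0571. The script was tested on simulated data.

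Members, lists and alternatives were chosen with earlier results of these data known. Differences were given for the 3 members with the smallest p in each role group, and for the 2 such genes in each pathway list. Promoters were matched by gene ID. In 24 of 32 windows, 20 bases shortly after the start were found near the 5 prime end of a GENCODE transcript. For the reverse complement this held in 0 windows. The search checks the orientation of the windows, not the exact start of transcription.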

Additional observations from a re-analysis of the deposited data

How the results depend on the processing

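No member was called under any of the 18 alternatives. The count of all genes called, 4 as reported, was 1 with a pseudocount of 0.1, with no filter, with a mean of at least 1 FPKM and after removal of the length trend, 2 with limma voom, 0 with the replicate block, and between 1 and 7 without single libraries. Members at an unadjusted p under 0.05, 1 as reported, numbered 0 per recovered read, 2 after quantile normalization or removal of the length trend, 4 with array weights, and 0 to 2 without single libraries. Members of the S phase list lower in cKO, 12 as reported, numbered 6 with TPM and 3 with array weights, and between 3 and 14 without single libraries. With TPM the median over all genes tested rose as well, from -0.008 to 0.070. Mitosis members higher in cKO, 18 as reported, numbered between 9 and 20 without single libraries. Members lowest in cKO replicate 3, 31 as reported, numbered 19 with TPM. Of 252 log2 differences of named members under the alternatives, 248 kept their direction; Rrm2 turned to 0.023 with array weights and lay between -0.361 and 0.008 without single libraries, turning without cKO replicate 3. Cdc20 lay between -0.154 and 0.221 without single libraries, turning without cKO replicate 1 and, at -0.097, without Ctrl replicate 3. The cause was not tested. Same-numbered samples showed little common deviation (correlations of 0.115, -0.087 and -0.129 for replicates 1, 2 and 3). With so few libraries, these correlations cannot show whether the replicate numbers pair the samples. The sample descriptions number the libraries in a single run through both groups, with a gap among the Ctrl libraries. Those numbers differ from the replicate numbers for all but Ctrl replicate 1, and no label names a pairing. In the fit with the replicate block, to which cKO replicate 4 without a partner adds nothing, the smallest adjusted p of a member was 0.605. With 4 against 3 libraries and a median interval half-width of 0.50, smaller log2 differences could not be resolved for most members.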
